A study of Mus musculus with 91 samples.

Results

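The 9 genes described here encode the subunits of AMPA receptors, which carry most fast glutamate signalling onto the spiny neurons of the nucleus accumbens, and of kainate receptors, a related family of glutamate-gated channels. They were chosen by gene family and Ensembl identifier, with earlier results of these data known. All 9 were present among the 14355 genes of the deposited count table. The 4 AMPA receptor genes are Gria1 (ENSMUSG00000020524), Gria2 (ENSMUSG00000033981), Gria3 (ENSMUSG00000001986) and Gria4 (ENSMUSG00000025892). The 5 kainate receptor genes are Grik1 (ENSMUSG00000022935), Grik2 (ENSMUSG00000056073), Grik3 (ENSMUSG00000001985), Grik4 (ENSMUSG00000032017) and Grik5 (ENSMUSG00000003378). The symbols come with the list of identifiers, since the count table holds identifiers only.

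Ribosome-associated mRNA was sequenced from D1 and D2 neurons of the mouse nucleus accumbens, a ventral striatal region involved in reward. D1 and D2 neurons are its main output neurons and are named for the dopamine receptor each carries. Mice with Drd1-Cre (D1) or A2a-Cre (D2) were crossed to RiboTag mice, in which Cre switches on a ribosomal protein, Rpl22, with an HA tag that can be pulled down with its mRNA. All groups therefore carried the tagged ribosome, a Cre driven by a single promoter defined each cell type, and each sample pooled tissue from 2 mice. Animals of both sexes were over 10 weeks old, lived in 12:12 h light and dark, and were collected at ZT2, 6, 10, 14, 18 or 22, where ZT counts hours from lights on. There were 45 D1 libraries (23 female, 22 male) and 46 D2 libraries (23 female, 23 male), in 24 groups of 3 to 4 libraries defined by cell type, sex and time. A letter from A to D in the sample title numbers the replicates of a group, and 1 D1 female library at ZT22 carries the letter E.

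AMPA receptors are tetramers of GluA1 to GluA4. GluA2, made from Gria2, is normally edited in its pore and then makes the channel nearly impermeable to calcium, so receptors without it pass calcium, and the exchange of GluA1 and GluA2 at accumbens synapses is a much studied form of plasticity. Kainate receptors are built from GluK1 to GluK3, which form channels on their own, and from the high-affinity subunits GluK4 and GluK5, which need one of the former as a partner. Kainate receptors act both as slow postsynaptic channels and as presynaptic regulators of transmitter release.

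Libraries held 6872165 to 24665262 counts (14296688 ± 3740182, SD, n = 91), and the fewest counts of any of the 9 genes in a library was 55, for Grik1. Values are given as CPM, a gene's share of the library's counts after TMM scaling, and differences as log2 with their SE. A call means an adjusted p below 0.05 by edgeR's quasi-likelihood test over all 14355 genes. CPM are compared within a gene only, since they do not account for transcript length. A set of 3 D1 male libraries (ZT10 B, ZT22 B and ZT18 D) stood apart: between 205 and 789 genes were at 0 counts in each, against at most 3 in any other library. Marker genes of D1 neurons, D2 neurons and other cells could not be matched to identifiers here, so the cell type labels were not checked against them.

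Grik3 was the subunit gene that separated D1 from D2 neurons. It encodes GluK3, a channel-forming kainate receptor subunit of low glutamate affinity. Grik3 reached 80.1 to 154.7 CPM in D1 libraries (median 113.1, n = 45) and 153.5 to 406.4 CPM in D2 libraries (median 218.1, n = 46). The ranges barely overlapped: 1 of 45 D1 libraries lay above the lowest D2 library, and 2 of 46 D2 libraries lay below the highest D1 library. In the 42 pairs of a D1 and a D2 library of the same sex, time and letter, the D2 library was the higher in all 42. Means were 114.2 ± 21.2 CPM over D1 and 254.9 ± 76.1 CPM over D2 libraries (SD), a fitted difference of -1.15 ± 0.077 for D1 minus D2, or 2.22-fold higher in D2 (adjusted p = 3.75e-23, edgeR). The 95% interval of the difference ran from -1.303 to -1.001. This fit had no term for the replicate letter, although 88.4% of the variance of Grik3 in D2 went with it. The differences within letters A, B, C and D, given below, all lay outside that interval. The interval and the p-value therefore overstate the precision. Grik3 ranked 95 of 14355 genes by p in this comparison. In bulk material such as this, a different make-up of the captured cells and a different mRNA level per cell cannot be told apart.

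Gria3 was the only other subunit gene called. It encodes GluA3, which pairs mainly with GluA2. D1 libraries ran from 231.8 to 407.0 CPM (median 348.6, n = 45) and D2 libraries from 323.0 to 489.4 CPM (median 378.6, n = 46). The ranges overlapped widely, with 33 of 45 D1 libraries above the lowest D2 library. The difference was -0.16 ± 0.035, or 1.12-fold higher in D2 (adjusted p = 1.25e-04, edgeR), and D2 was the higher in 29 of 42 matched pairs. Without the 3 libraries that stood apart it was -0.13 ± 0.030 for Gria3 (adjusted p = 4.64e-04, edgeR) and -1.12 ± 0.083 for Grik3 (adjusted p = 1.61e-20, edgeR). The fits of Gria3 also had no letter term, and 54.6% of its variance in D2 went with the letter. Over all libraries its 95% interval ran from -0.230 to -0.095, and the values under letters A and B, given below, lay outside it. The SE and p-value of Gria3 therefore overstate the precision as well. Both called genes, 2 of 9, were higher in D2. Of all genes, 19.3% were called in this comparison and 9.86% were called higher in D2, so the number of subunit genes called was close to the background share.

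**Figure D1:**
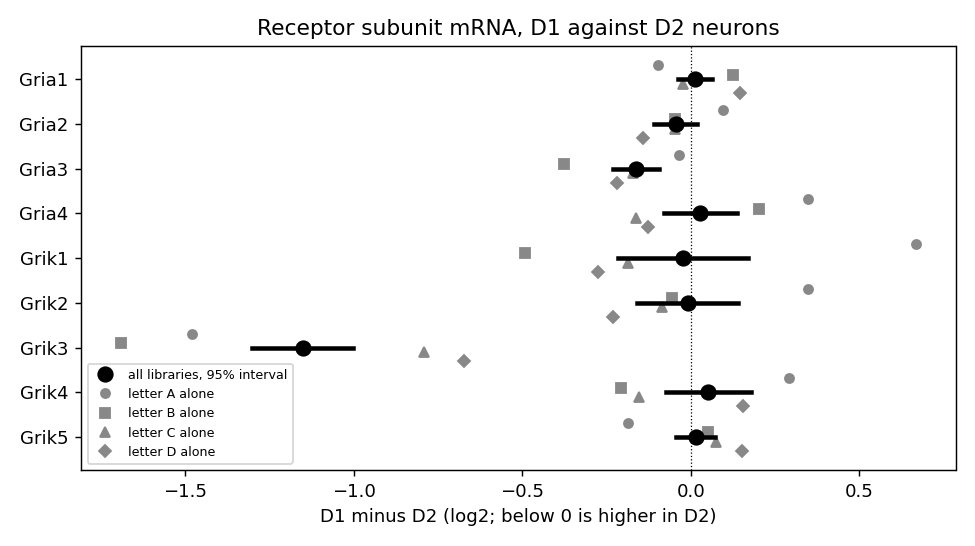
Difference between D1 and D2 neurons for each of the 9 subunit genes (D1 minus D2, log2, horizontal axis). Black points and bars are the fit to all 91 libraries with its 95% interval, and grey symbols are fits to the libraries of 1 replicate letter. Grik3 lies at -1.15 and left of 0 under every letter; Gria3 lies at -0.16; the other 7 intervals include 0.

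The 7 other genes were not called, and their mean levels lay close together in the cell types. For the AMPA receptor, Gria1, encoding GluA1, a subunit delivered to synapses with activity, averaged 930 ± 87.5 CPM in the 45 D1 libraries and 920 ± 65.6 CPM in the 46 D2 libraries (SD). Its difference of 0.01 had a 95% interval from -0.036 to 0.063 (adjusted p = 0.727, edgeR). Gria2 averaged 1959 ± 179 and 2025 ± 217 CPM in D1 and D2, with an interval of the difference from -0.11 to 0.018 (adjusted p = 0.327, edgeR). Gria4, encoding GluA4, averaged 126.7 ± 13.9 and 124.4 ± 27.7 CPM, with an interval from -0.081 to 0.14 (adjusted p = 0.734, edgeR). Of these 3 intervals that of Gria4 was the widest. They come from the fit without a letter term, while 92.3% of the variance of Gria4 in D2 went with the letter. The Gria4 values within letters A, B, C and D, given below, all lay outside its interval, which therefore overstates the precision.

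Among the kainate receptor genes other than Grik3, Grik1 (GluK1) averaged 17.7 ± 4.19 CPM in the 45 D1 libraries and 18.1 ± 6.36 CPM in the 46 D2 libraries (SD). Its interval was the widest, from -0.22 to 0.17 (adjusted p = 0.888, edgeR). Grik2, which encodes the channel-forming subunit GluK2, averaged 349.6 ± 69.3 and 350.04 ± 96.1 CPM in D1 and D2, with an interval from -0.16 to 0.14 (adjusted p = 0.938, edgeR). The high-affinity subunit genes gave intervals from -0.075 to 0.18 for Grik4 (adjusted p = 0.585, edgeR) and from -0.042 to 0.073 for Grik5 (adjusted p = 0.729, edgeR). Grik4 averaged 24.2 ± 4.05 and 23.3 ± 5.72 CPM in D1 and D2, and Grik5 averaged 147.0 ± 16.3 and 145.4 ± 17.9 CPM. The intervals of these kainate receptor genes also come from the fit without a letter term. For each gene, some value within a single letter, given below, lay outside its interval. The median absolute difference over the 9 genes was 0.029, against 0.092 over all genes tested. Both are from the fit over all letters, while several of the 9 genes differed in opposite directions within single letters, as given below. The median over all genes was not matched for expression level.

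Averages over letters hid large differences between replicates, above all in D2 neurons. In D2 libraries Grik3 averaged 342 ± 32.9 CPM under letter A and 309 ± 41.1 CPM under B, against 183 ± 21.1 CPM under C and 194 ± 13.0 CPM under D (SD, n = 12, 10, 12 and 12). Every D2 library of A or B, at 250.8 CPM or above, lay higher than every D2 library of C or D, at 221.1 CPM or below. Grik2 went the other way, at 244 ± 25.1 and 268 ± 31.2 CPM under A and B and 443 ± 34.5 and 431 ± 18.5 CPM under C and D. Gria4 followed Grik2, with 92.8 ± 7.22 and 102 ± 8.35 CPM under A and B and 151 ± 8.84 and 148 ± 6.45 CPM under C and D. Grik1 stood at 11.1 ± 2.21 and 14.1 ± 3.69 CPM under A and B and at 22.8 ± 3.48 and 23.9 ± 3.03 CPM under C and D. These are differences among libraries that the labels place in the same groups of sex and time, and the labels do not say what a letter stands for.

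The share of variance that went with the letter in D2 libraries was 92.3% for Gria4, 90.96% for Grik2, 88.4% for Grik3, 84.4% for Gria2 and 77.9% for Grik1. It was 65.4% for Grik4, 54.6% for Gria3, 43.1% for Grik5 and 20.1% for Gria1, while the median gene of the table had 61.6%. In D1 libraries the same share ran from 13.9% (Grik5) to 54.1% (Grik4), with a median of 24.3% over all genes. Depth moved with the letter in D2, from 19727033 ± 3011572 counts under A and 16241681 ± 3878526 under B to 11336342 ± 1749182 under C and 10904585 ± 1753165 under D. Its part in these differences was not tested. The 3 libraries that stood apart are all D1 libraries and do not enter the D2 values.

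**Figure D2:**
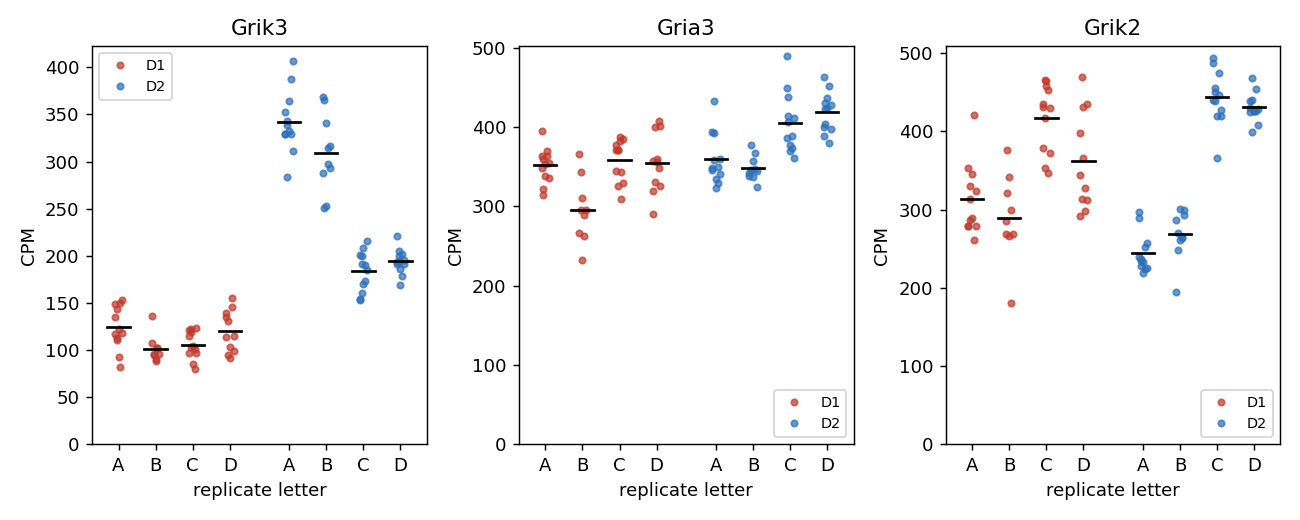
CPM of Grik3, Gria3 and Grik2 in each library (points) by replicate letter, with D1 in red and D2 in blue and the mean of each letter as a bar; the single D1 library with the letter E is not drawn. In D2, Grik3 averages 342 and 309 CPM under A and B but 183 and 194 CPM under C and D, while Grik2 is low under A and B (244 and 268 CPM) and high under C and D (443 and 431 CPM).

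Across the 46 D2 libraries Grik3 ran opposite to Gria4 (r = -0.96), Grik2 (r = -0.95), Grik1 (r = -0.89) and Gria2 (r = -0.88). Grik2 and Gria4 rose and fell together (r = 0.94). These are descriptions of log2 values in libraries that share letters and depths, and the letter carries most of the variance on both sides. In the 45 D1 libraries Grik3 had r = -0.18 with Gria4, -0.36 with Grik2, 0.14 with Grik1 and -0.32 with Gria2. Grik2 and Gria4 had r = 0.59 there.

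**Figure D3:**
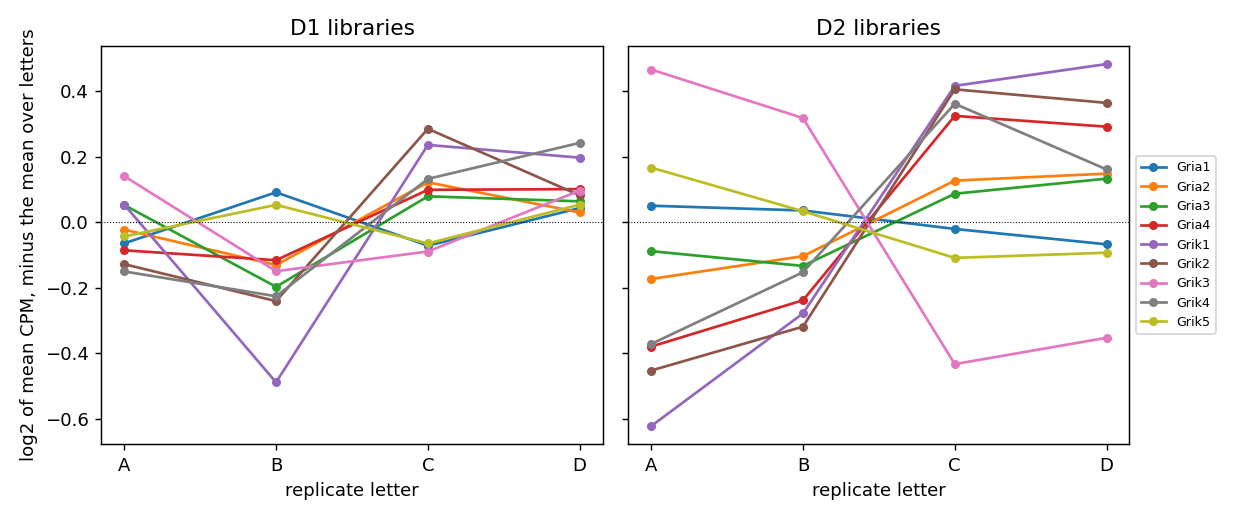
Mean level of each subunit gene by replicate letter, as log2 CPM minus the gene's mean over the 4 letters, in D1 (left) and D2 (right) libraries; lines only join the points of a gene, since letters have no order. In D2, Grik3 and Grik5 are above their mean under A and below it under C and D, and Grik1, Grik2, Grik4, Gria2, Gria3 and Gria4 are below it under A and B and above it under C and D.

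The difference in Grik3 between D1 and D2 was present within every letter, but its size changed. It was -1.48 ± 0.065 under A, -1.69 ± 0.074 under B, -0.79 ± 0.066 under C and -0.67 ± 0.078 under D, and the largest of the adjusted p-values was 2.07e-06 (edgeR, each letter fitted alone). D1 means of Grik3 were 124, 101, 106 and 120 CPM under A to D, so the spread between letters lay mostly on the D2 side. Gria3 was called under B (-0.37 ± 0.048), C (-0.17 ± 0.044) and D (-0.22 ± 0.045), and lost its call under A at -0.036 ± 0.047 (adjusted p = 0.540, edgeR). The difference between letters was not itself tested.

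The other 7 genes were not called over all letters, yet several were called within single letters and in opposite directions. Under A alone 7 of 9 subunit genes were called, where 48.3% of all genes were. The counts were 5 of 9 under B (48.3% of all genes), 4 of 9 under C (55.9%) and 8 of 9 under D (54.3%). Gria4 was higher in D1 under A (0.35 ± 0.044) and B (0.20 ± 0.047) and lower in D1 under C (-0.16 ± 0.045) and D (-0.13 ± 0.036), with adjusted p-values from 4.96e-06 to 0.00647 (edgeR). Grik1 was higher in D1 under A (0.67 ± 0.097, adjusted p = 2.17e-05, edgeR) and lower under B (-0.49 ± 0.099, adjusted p = 7.57e-04, edgeR) and D (-0.28 ± 0.066, adjusted p = 0.00183, edgeR). Grik2 was higher in D1 under A (0.35 ± 0.050, adjusted p = 1.79e-05, edgeR) and lower under D (-0.23 ± 0.054, adjusted p = 0.00151, edgeR). Grik5 was lower in D1 under A (-0.19 ± 0.040, adjusted p = 8.91e-04, edgeR) and higher under D (0.15 ± 0.045, adjusted p = 0.00782, edgeR).

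Leaving out letter A raised the number of called subunit genes from 2 to 4, adding Gria2 (-0.090 ± 0.036, adjusted p = 0.0334, edgeR) and Grik5 (0.086 ± 0.030, adjusted p = 0.0170, edgeR). The share of all genes called rose to 48.2% as well, so 4 of 9 was close to the background. A block by letter within each cell type called 3 of 9, adding Gria4 (0.059), where 45.8% of all genes were called. The same block without the 3 libraries that stood apart called 4 of 9, where 50.8% of all genes were. With the letter as a replicate block across both cell types, Grik3 and Gria3 were again the 2 of 9 called, while the share of all genes called rose to 38.1%.

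The balance of GluA1 to GluA2 was followed as the log2 ratio of Gria1 to Gria2 counts within a library, which does not depend on library size. The ratio was -1.08 ± 0.220 (SD, n = 45) in D1, from -1.51 to -0.49, and -1.13 ± 0.224 (SD, n = 46) in D2, from -1.51 to -0.63. The difference of 0.059 did not pass the threshold when cell type labels were shuffled over all libraries (two-sided permutation test, 100000 resamples, p = 0.210). Shuffling the labels within each letter gave a permutation p = 0.117. Here too letters differed: D1 minus D2 was -0.19 under A (permutation p = 0.00437) and 0.14 under B (p = 0.0437), 0.025 under C (p = 0.672) and 0.30 under D (p = 1.90e-04). Without letter A the difference was 0.15 (permutation p = 0.00680). In D2 the ratio itself was -0.91 ± 0.150 under A and -1.34 ± 0.118 under D (SD, n = 12 each).

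Within the kainate receptor genes, the log2 ratio of Grik3 to Grik2 was -1.61 ± 0.463 (SD, n = 45) in D1 and -0.46 ± 0.835 (SD, n = 46) in D2. In D2 it averaged 0.49 ± 0.236 under A and 0.20 ± 0.346 under B. Under C and D it averaged -1.28 ± 0.255 and -1.15 ± 0.103. The D1 averages ran from -1.99 to -1.35 over letters A to D. The ratio of Grik4 to Grik5 was -2.62 ± 0.315 in D1 and -2.67 ± 0.481 in D2. The ratios are of counts and not of transcripts, as transcript lengths were not used, and only their differences between libraries can be read.

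The gene of the table most like Grik3 over the 24 group means was ENSMUSG00000020178 (r = 0.99 of log2(CPM + 1)). It averaged 74.8 ± 20.1 CPM over the D1 and 360.2 ± 135 CPM over the D2 libraries (SD). In D2 it also followed the letters, at 517, 448, 234 and 258 CPM under A to D. Likeness here was taken over all genes and groups, which differ mostly by cell type. Among the other subunit genes Gria3 was the nearest to Grik3 (r = 0.72), and 634 genes of the table were nearer. Within a cell type Gria3 and Grik3 did not go together so: r was -0.66 across the 46 D2 libraries and 0.24 across the 45 D1 libraries. No subunit gene had another subunit gene as its most similar gene.

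Grik5, the gene of the high-affinity subunit GluK5, was the subunit gene called for a daily rhythm. In D2 libraries it averaged 136.8 ± 14.0 CPM at ZT2, 146.4 ± 18.0 at ZT6, 155.4 ± 21.2 at ZT10, 156.0 ± 18.0 at ZT14, 145.0 ± 14.6 at ZT18 and 132.1 ± 10.5 at ZT22 (SD, n = 7, 7, 8, 8, 8 and 8). The level was thus highest around the change from light to dark and lowest late in the dark phase. The fitted 24 h rhythm had an amplitude, from mean to peak, of 0.13 ± 0.031 and a peak at ZT 11.7 (adjusted p = 0.0362, edgeR), which is 1.19-fold from trough to peak. Grik5 was 1 of 9 subunit genes called in D2, where 2.94% of all genes were. ZT10 was higher than ZT22 in 8 of 8 series of the same sex and letter, with a median difference of 0.22. These times lie near the fitted peak and trough of the same libraries, so the count is a description and no separate test.

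In D1 libraries Grik5 averaged 143.1 ± 18.2 CPM at ZT2, 150.0 ± 16.1 at ZT6, 159.4 ± 12.5 at ZT10, 156.0 ± 17.6 at ZT14, 138.4 ± 6.55 at ZT18 and 134.2 ± 9.15 at ZT22 (SD, n = 8, 8, 8, 7, 6 and 8). At ZT10 the 8 libraries ran from 147.1 to 185.9 CPM and at ZT22 from 119.9 to 148.5 CPM, so the times overlapped by 1 library on each side. The amplitude was 0.12 ± 0.028 with a peak at ZT 10.2, and it missed the threshold (adjusted p = 0.0548, edgeR). No subunit gene of 9 was called in D1, against 0.495% of all genes. Grik5 ranked 80 by p among the 14355 genes, of which 71 were called. ZT10 was higher than ZT22 in 7 of 7 series, with a median difference of 0.32, again as a description. Without the 3 libraries that stood apart, of which 1 was the highest at ZT10, the D1 amplitude was 0.11 (adjusted p = 0.0731, edgeR).

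**Figure D4:**
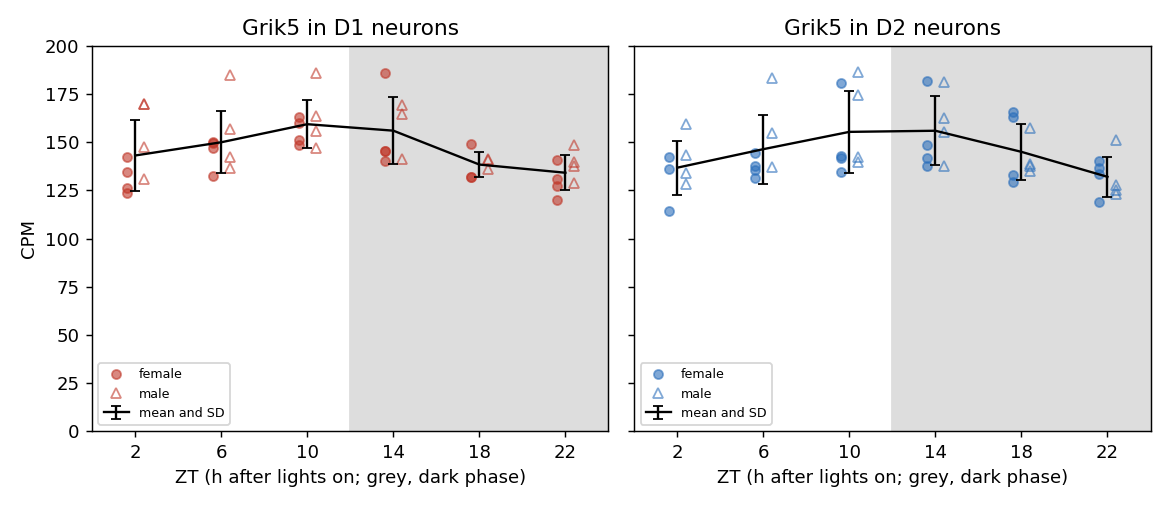
CPM of Grik5 by ZT (hours after lights on; grey marks the dark phase) in D1 (left) and D2 (right) libraries, with females as filled circles, males as open triangles, and the mean and SD of each time in black. Means lie highest at ZT10 in D1 (159.4 CPM) and at ZT14 in D2 (156.0 CPM) and lowest at ZT22 in both (134.2 and 132.1 CPM).

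The rhythm of Grik5 did not differ detectably between the cell types. The amplitude of the difference was 0.047 ± 0.042 (adjusted p = 0.835, edgeR). None of the 9 genes was called for a difference in rhythm, where 2 of 14355 genes (0.0139%) were. The call in D1 turned with the method: the adjusted p for Grik5 was 0.00426 with DESeq2, 0.0402 with RLE size factors and 0.0284 with depth as a covariate, where 1.5%, 0.509% and 2.19% of all genes were called. With the letter as a block in D1 it was 0.0362 (edgeR), where 1.13% of all genes were called. Grik5 stayed uncalled in D1 with limma (adjusted p = 0.0566, limma) and with time as a factor (adjusted p = 0.554, edgeR). Without any 1 letter it was also uncalled in D1 (adjusted p from 0.0918 to 0.397, edgeR). In D2 the call was lost with time as a factor of 6 levels (adjusted p = 0.622, edgeR) and without letter A (0.133), B (0.191), C (0.236) or D (0.128), with amplitudes between 0.10 and 0.14.

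Same-letter D2 libraries of different groups deviated together, so the rhythm was also fitted in D2 with the letter as a block. Libraries of different letters were not compared in this way. Grik5 kept its amplitude (0.12 ± 0.019, peak at ZT 11.6, adjusted p = 3.57e-05, edgeR) and kept its call without each letter in turn (adjusted p from 1.75e-04 to 0.0105, edgeR). The block added Grik1 and Grik4, for 3 of 9 subunit genes, where 22.3% of all genes were called. Grik1 had an amplitude of 0.18 ± 0.045 with a peak at ZT 20.8 (adjusted p = 0.00848, edgeR). Its D2 means were 16.1 ± 5.37 CPM at ZT14 and 21.3 ± 6.88 CPM at ZT22 (SD, n = 8 each). As a description, all 8 series were lower at ZT10 than at ZT22. Grik4 had an amplitude of 0.14 ± 0.038 with a peak at ZT 4.2 (adjusted p = 0.0172, edgeR). Its means were 27.4 ± 6.53 CPM at ZT2 (SD, n = 7) and 21.4 ± 4.88 CPM at ZT18 (SD, n = 8). Grik1 lost the call without letter B (adjusted p = 0.0832, edgeR), and Grik4 lost it without letter C (0.183) or D (0.0598).

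Under the block, the fitted peaks of the 3 genes in D2 lay at different parts of the day, and whether they differ was not tested. The fitted peak of Grik4 fell in the early light phase, that of Grik5 near lights off and that of Grik1 late in the dark phase. Without the block, Grik1 (amplitude 0.15 ± 0.109) and Grik4 (0.16 ± 0.072) had adjusted p-values of 0.940 and 0.512 (edgeR). The AMPA receptor genes had amplitudes in D2 under the block of 0.017 ± 0.021 for Gria1, 0.029 ± 0.020 for Gria3, 0.033 ± 0.016 for Gria2 and 0.051 ± 0.016 for Gria4. Of these, Gria4 was the nearest to a call (adjusted p = 0.0525, edgeR). Grik2 and Grik3 had amplitudes of 0.032 ± 0.024 and 0.028 ± 0.028, and neither was called (adjusted p = 0.547 and 0.712, edgeR).

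**Figure D5:**
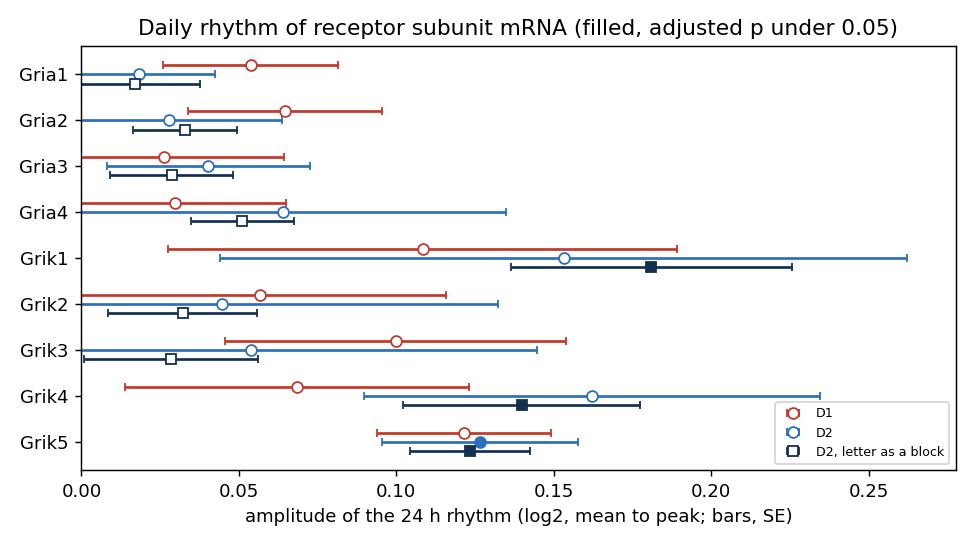
Amplitude of the fitted 24 h rhythm (log2, mean to peak) of each subunit gene with its SE, in D1, in D2, and in D2 with the replicate letter as a block; filled symbols have an adjusted p below 0.05. Grik5 is near 0.12 to 0.13 in all 3 fits, and Grik1 (0.18) and Grik4 (0.14) are called with the block only.

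The gene most like Grik5 over the 24 group means was ENSMUSG00000020785 (r = 0.84), with 80.9 ± 19.0 CPM at ZT10 and 61.1 ± 7.77 CPM at ZT22 in D1 (SD, n = 8 each).

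No subunit gene was called between males and females without a block. In D1 libraries 0 of 9 were called, against 0.0418% of all genes, and in D2 libraries 0 of 9, against 0.216%. The lowest p in D1 belonged to Gria1 (0.093 ± 0.040, male minus female, adjusted p = 0.267, edgeR) and Grik5 (0.092 ± 0.040, adjusted p = 0.268, edgeR). Gria1 ran from 786.5 to 1046 CPM in D1 females (median 917.1, n = 23) and from 870.9 to 1287 CPM in D1 males (median 933.1, n = 22). The highest of these male values, 1287 CPM, was from the ZT22 B library that stood apart. Without multiple testing adjustment, p was 0.0240 for Gria1 and 0.0253 for Grik5 (edgeR). Without the 3 libraries that stood apart, all from males, Gria1 was at 0.051 ± 0.034 (unadjusted p = 0.134, edgeR) and Grik5 at 0.084 ± 0.041 (unadjusted p = 0.0446, edgeR). Grik3 then had the lowest p of the 9, at 0.18 ± 0.076 (unadjusted p = 0.0218, adjusted p = 0.688, edgeR).

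With the letter as a block in D2, 2 of 9 subunit genes were called between the sexes, where 9.45% of all genes were. Gria4 was higher in females (-0.10 ± 0.023, male minus female, adjusted p = 0.00525, edgeR), with 128.4 ± 28.0 CPM in females and 120.4 ± 27.4 CPM in males (SD, n = 23 each). Grik3 was higher in males (0.12 ± 0.039, adjusted p = 0.0365, edgeR), with 244.8 ± 77.4 CPM in females and 265.0 ± 75.0 CPM in males (SD, n = 23 each). Sexes overlapped almost fully for both genes, and the unblocked values were similar in size (-0.097 and 0.12) with adjusted p-values of 0.926 (edgeR). Under the block and without letter B neither was called (0.101 for Gria4 and 0.423 for Grik3), and Grik3 was also lost without C (0.107) or D (0.0754). In D1 the male minus female difference of Grik3 was 0.12 ± 0.076 (adjusted p = 0.420, edgeR).

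The cell type difference of Grik3 was seen in both sexes. Females had 109.7 ± 19.6 CPM in D1 and 244.8 CPM in D2, and males had 118.9 ± 22.2 CPM in D1 and 265.0 CPM in D2 (SD, n = 22 to 23). The test of the sex difference in D1 against that in D2 gave 0.003 ± 0.151 for Grik3, with a 95% interval from -0.29 to 0.30 (adjusted p = 0.999, edgeR). No gene of the table was called in that test (0% of all genes, 908 at an unadjusted p below 0.05, edgeR; 16 of 1275 genes with an adjusted p in DESeq2). The rhythms of the sexes were compared in the same way. That comparison also called no gene in D1 (0%, 226 at an unadjusted p below 0.05, edgeR; 0 with DESeq2) and none in D2 (0%, 389 at an unadjusted p below 0.05, edgeR; 2 with DESeq2). None of these calls by DESeq2 was a subunit gene. In the test of the sex difference between the cell types, DESeq2 gave no adjusted p for Gria4, Grik1, Grik4 and Grik5. Those genes could therefore not be called there.

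Grik3 lies on chromosome 4 (chr4:125490259-125714173, GRCm38.p6), Grik5 on chromosome 7 (chr7:25009849-25075694) and Gria3 on the X chromosome (chrX:41400819-41678601). In RefSeq, 3 other genes overlap the span of Grik3, 1 overlaps that of Grik5 and none overlaps that of Gria3. The sources used here do not say whether the counting used strand, so reads from an overlapping gene on the other strand cannot be told apart from those of Grik3 or Grik5.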

How the data were processed

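The authors deposited a table of whole-number read counts per gene for the D1 and D2 libraries; its name marks it as filtered on log CPM with the threshold not stated. The submitters' processing notes name FastQC 0.11.7, HISAT2, HTSeq 0.10.0 and the builds GRCm38 and GRCh38, without roles. No column was left unmapped.

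Counts were fitted with edgeR 4.0.16 in R 4.3.3 (TMM, quasi-likelihood), with a mean, a cosine and a sine term of 24 h for each cell type and sex. Rhythm and sex in a cell type were fitted on its libraries alone; comparisons of cell types used all 91. P-values were adjusted by Benjamini-Hochberg over 14355 genes. All 9 subunit genes were tested in every comparison of the fit as reported, and not all are named in each. The gene most like each has the highest Pearson r over 24 group means of log2(CPM + 1). A list of receptor partners and the cell markers could not be scored, because no table pairs identifiers with names. For the Gria1 to Gria2 ratio, 0.5 was added to each count. The genes and lists were chosen with earlier results of these data known. Scripts were tested on simulated data.

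Letters were treated as pairing D2 libraries, since deviations of same-letter libraries from their group means went together. They correlated above 0.1 in 243 of 243 pairs (median 0.74), against 156 of 223 in D1. For same-letter pairs of a D1 and a D2 library it was 381 of 510. Pairs of different letters were not examined, so this does not show that the letter is the unit of pairing. The labels do not say that libraries share animals, and p-values measure the spread between these pooled samples. No 2 libraries of a group agreed within sampling noise (lowest mean chi-square per gene 4.24 over 129 pairs). The alternatives were DESeq2 1.42.0, limma 3.58.1 on log2(CPM + 1), RLE size factors, filterByExpr, a letter block, depth as a covariate, time as a factor, and libraries or letters left out. Leaving out libraries or letters together with a block was added after the data were seen. Homogenate and astrocyte samples were not analysed here.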

Additional observations from a re-analysis of the deposited data

Results flagged for a closer look

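Each subunit gene was examined in the 12 groups of cell type and time (6 to 8 libraries each, 108 groups in all) for a highest or lowest library whose gap to the next exceeded Dixon's 95% limit, which chance passes in about 1 in 20 groups. It was passed in 8 groups. The D1 male library B at ZT22, which stood apart from the other libraries, was the source of 3 of them: Gria1 at 1287 CPM (next 963.3), Grik1 at 4.81 CPM (next 16.3) and Grik4 at 10.9 CPM (next 20.2). The D1 male library B at ZT10, which also stood apart, held Grik5 at 185.9 CPM (next 163.5). In libraries that did not stand apart, Gria3 reached 489.4 CPM in D2 male C at ZT18 (next 399.9) and Grik1 reached 24.3 CPM in D1 female C at ZT2 (next 17.9). Grik4 reached 34.0 CPM in D2 female C at ZT22 (next 23.8), and Grik5 reached 184.8 CPM in D1 male D at ZT6 (next 157.0).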

How the results depend on the processing

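Of 1155 recomputed values of single subunit genes, 1109 kept their side of the threshold, 33 gained a call, 6 lost one and 7 turned their sign with a call. Among the 1109, 54 turned their sign with no call in either fit. Grik3 stayed called and higher in D2 in all settings run. Between D1 and D2, 2 subunit genes were called in the fit as reported, 7, 5, 4 and 8 under letters A, B, C and D alone, and 2 to 4 with a letter left out. With a letter left out, 12.3% to 48.2% of all genes were called. The turns of sign with a call were all within single letters: under A, Gria2 (0.096), Grik1 (0.67), Grik2 (0.35), Grik5 (-0.19) and the Gria1 to Gria2 ratio (-0.19); under C, Gria4 (-0.16) and Grik4 (-0.15); under D, Gria4 (-0.13). The ratio passed the threshold under B (0.14) and D (0.30) and without A; over letters left out it ran from -0.026 to 0.15. A replicate block within each cell type called 3 subunit genes, adding Gria4, and 4 without the 3 libraries that stood apart, adding Gria4 and Grik4, at the background shares given with the cell type comparison. In D1, 1 rhythmic gene (Grik5) was called with DESeq2, RLE size factors, a replicate block or depth as a covariate. With any 1 letter left out, 0 subunit genes were called in D1, where 0.0906% to 0.376% of all genes were. The block without the 3 libraries gave Grik5 an adjusted p of 0.0573 (edgeR). In D2, rhythmic subunit genes numbered 3 with the replicate block (22.3% of all genes) and 0 with time as a factor (0.634%). With a letter left out, 0 were called without the block, where 0.383% to 1.82% of all genes were. With a letter left out under the block, 2 to 3 were called, where 7.91% to 18.5% of all genes were. Sex differences in D2 numbered 2 with the replicate block (9.45% of all genes). With a letter left out they numbered 0 without the block (0.0488% to 0.195% of all genes) and 0 to 2 under it (0.906% to 10.4%). Leaving out a letter also leaves fewer libraries; other causes were not tested. The replicate block changed no other call of a subunit gene than these and those of Gria4 and Grik3 between sexes in D2. The block drops the single library with the letter E. Grik1 (55 to 398 counts) and Grik4 (125 to 488 counts) were the least deeply counted. Between D1 and D2, Grik1 had the widest interval, but those of the more deeply counted Grik2 and Grik3 were wider than that of Grik4.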
